A study of Mus musculus with 6 samples.

Results

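Genes through which cells sense bacterial and viral molecules were examined in primary mouse hepatocytes, each found in the count table by its symbol. The list was drawn up with earlier results of these data known, so its counts and medians are a description and not those of an unselected set. The 10 genes, out of 23282 in the count table, are the lipopolysaccharide (LPS) handling genes Lbp, Cd14 and Ly96, the Toll-like receptor (TLR) genes Tlr1 to Tlr5, and the adaptor genes Tirap and Ticam1. Hepatocytes of C57BL6/N mice were plated for 3 h, the medium was changed, and the cells were then left untreated (control, 3 samples) or given IL-1β recombinant protein (3 samples) for 24 h. RNA was read by QuantSeq, which primes on the poly(A) tail and gives 1 fragment near the 3′ end of each transcript, so counts were not divided by gene length. The design text counts 2 samples in each group while naming 3, and all 6 were used. The paper states a dose for recombinant proteins beside another measurement of hepatocytes treated for the same time, but not beside the sequenced samples. It is also not stated whether the samples came from separate mice or cultures, so that the p-values measure only the spread between these samples, which may be technical.

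LPS, a component of the outer membrane of Gram-negative bacteria, is bound in plasma by LBP, a protein made mainly by hepatocytes. LBP passes it to CD14, which delivers it to the complex of TLR4 and MD-2, the product of Ly96. TIRAP brings the adaptor MyD88 to TLR2 and TLR4, whereas TRIF, the product of Ticam1, serves TLR3 and internalized TLR4, and the MyD88 route meets the signalling path of the IL-1 receptor. In the liver these receptors are best known from Kupffer cells, the resident macrophages, but hepatocytes also express several of them.

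The libraries held between 9538741 and 11105408 counts, of which the ribosomal RNA precursor Rn45s took between 11.7% and 14.2%. Within each group, samples differed by more than sampling noise, and none was a copy of another. A count of 3 in 1 library corresponded to between 0.270 and 0.315 CPM (counts scaled to a common library size), a lower limit that covers counting error only. The hepatocyte label was checked with 7 marker genes, Alb and Apoa1 among them, all of which were detected. Their summed level was between 20544 and 20738 CPM in control and between 17020 and 17910 CPM after IL-1β. Most of this was Alb, at 16183 CPM in control and 14089 CPM after IL-1β, whereas Cps1 was at only 2.65 and 2.06 CPM. Of the 7 genes, 6 were called lower (85.7%, beside 6.44% of all genes tested). The largest change among them was that of Hnf4a, from 87.6 CPM in control to 42.6 CPM after IL-1β. The list held 8 genes, but Tf was not found by that symbol. Counts were compared with the quasi-likelihood test of edgeR after scaling by the trimmed mean of M-values (TMM), with Benjamini-Hochberg adjustment over the 11657 genes with enough counts and a threshold of 0.05.

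Cd14, Lbp and Tlr2 rose after IL-1β. Cd14 was 3.13-fold, Lbp 2.04-fold and Tlr2 1.96-fold higher than in control, and no sample of one group overlapped the other for any of the 3. Of the 10 genes, 9 had enough counts to be tested, and 3 of these were called higher (33.3%), 0 lower and 6 neither way. No member was called lower by DESeq2 or limma either, nor at an unadjusted p below 0.05 in edgeR. Among all genes tested, 6.97% were called higher, 6.44% were called lower and 28.2% did not overlap between the groups. With total counts in place of TMM, the share of all calls that were higher went from 52.0% to 39.7%, and the same 3 members were called. The median log2 fold change of the 9 members was 0.41, beside -0.002 over all genes tested and 0.44 over the 13 tested macrophage markers.

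**Figure D1:**
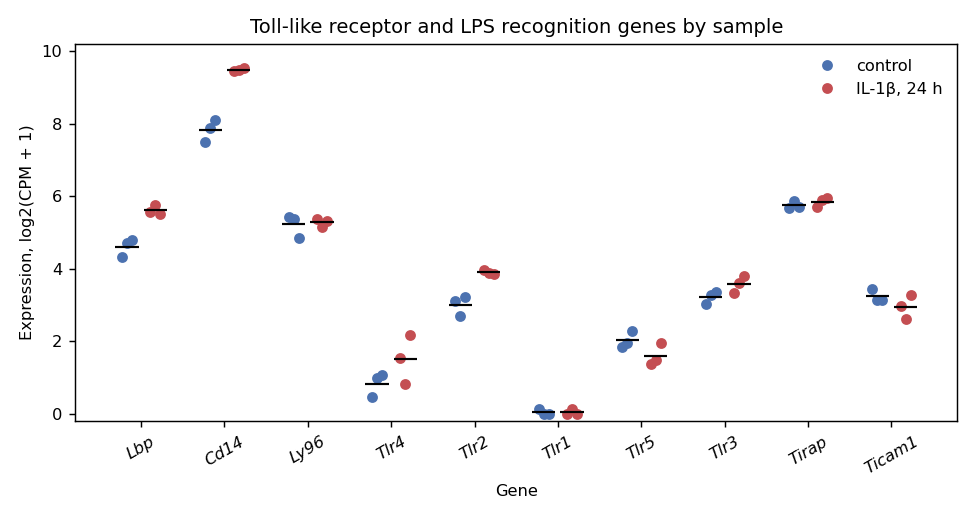
Expression of the 10 genes in each sample, as log2(CPM + 1) on the y axis, with control in blue, IL-1β in red and a bar at each group mean (n = 3). The 3 IL-1β samples lie above the 3 control samples for Cd14, Lbp and Tlr2, the groups overlap for the other genes, and Tlr1 stays at 0 or 1 count in every sample.

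Lbp encodes the plasma protein that carries LPS to CD14. The gene spans chr2:158306493-158332852 on the plus strand (GRCm38, as deposited). Its level was 19.1, 25.1 and 26.6 CPM in the 3 control samples and 46.9, 53.3 and 44.5 CPM in the 3 IL-1β samples. The lowest IL-1β sample thus lay well above the highest control. The group means were 23.6 ± 3.94 CPM in control and 48.2 ± 4.54 CPM after IL-1β (SD, n = 3 each). The log2 fold change was 1.03 (SE 0.124, 95% interval 0.78 to 1.29, adjusted p = 8.18e-07 by the edgeR quasi-likelihood test). An exact two-sided permutation test of the 3 samples against 3 gave p = 0.1 for Lbp, Cd14 and Tlr2 alike, the smallest p it can give.

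Cd14 encodes the co-receptor that receives LPS from LBP, either anchored in the membrane or shed in a soluble form. The gene spans chr18:36725064-36726815 on the minus strand. Counts were 1901, 2644 and 2728 in control and 6550, 7467 and 7954 after IL-1β, which gave it the highest level of the 10 genes in both groups. In normalized terms the control samples were at 178, 236 and 275 CPM and the IL-1β samples at 699, 717 and 739 CPM. Every IL-1β sample exceeded every control sample, and the IL-1β samples lay closer together. The means were 230 ± 48.4 and 718 ± 19.6 CPM (SD, n = 3), which is 1.64 on the log2 scale (SE 0.097, 95% interval 1.45 to 1.84, adjusted p = 1.6e-12 by edgeR). Cd14 moved from the 94.7th to the 98.7th percentile of mean expression among the genes tested, and its increase ranked 112 among their log2 fold changes.

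Because Kupffer cells express much CD14, macrophage markers were read in the same libraries. The 16 markers summed to between 331 and 366 CPM in control and between 407 and 417 CPM after IL-1β, so that this sum, like Cd14, did not overlap between the groups. Of the 13 macrophage markers tested, 1 was called higher (7.69%, beside 6.97% of all genes tested) and 0 lower. This was Mpeg1, which encodes a pore-forming protein of phagocytes (log2 fold change 0.76, adjusted p = 1.72e-07 by edgeR). Of these 13 markers, 10 had a log2 fold change above 0, with a median of 0.44, close to that of the members. The groups did not overlap for 5 of the 13, beside 28.2% of all genes tested. These 5 were Mpeg1, Fcer1g (0.69), Marco (0.67) and Cd74 (0.56), which lay higher after IL-1β, and Cd5l (-0.21), which lay lower, and all but Mpeg1 missed the threshold. Most of the sum came from Cd68, Mpeg1 and Ctss. Cd68 was at 192 CPM in control and 184 CPM after IL-1β, Mpeg1 at 83.0 and 141 CPM, and Ctss at 30.1 and 29.8 CPM. Of these, only Mpeg1 did not overlap between the groups, and without Mpeg1 the sum overlapped as well. The 5 defining Kupffer cell and macrophage markers (Adgre1, Clec4f, Vsig4, Timd4 and Csf1r) together reached between 4.83 and 7.33 CPM in control and between 4.91 and 8.73 CPM after IL-1β. These ranges overlap, and Timd4 had at most 1 count in any library. In bulk samples a change in the number of cells of a type and a change in RNA per cell cannot be told apart, and the part of macrophages in the levels of Cd14, Tlr2 and the other members was not tested.

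**Figure D2:**
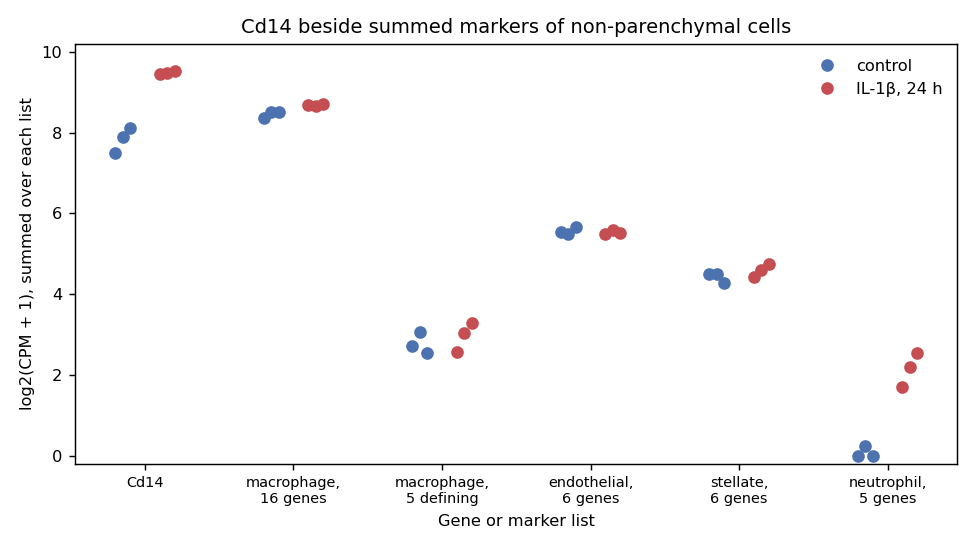
Cd14 beside summed markers of other cell types in each sample, as log2(CPM + 1) on the y axis, with control in blue and IL-1β in red. Cd14 and the sum of the 16 macrophage markers do not overlap between the groups, but without Mpeg1 that sum overlaps. The sum of the 5 defining macrophage markers overlaps, and the neutrophil sum is nearly all S100a8.

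Endothelial markers, 6 in number, summed to between 44.2 and 49.3 CPM in control and between 44.2 and 47.0 CPM after IL-1β. Among them Lyve1 was called higher (16.7%, beside 6.97% of all genes tested) and Kdr and Clec4g lower (33.3%, beside 6.44%). Lyve1 went from 18.8 to 25.7 CPM, Kdr from 4.55 to 1.62 CPM and Clec4g from 5.80 to 0.764 CPM. The groups did not overlap for 5 of the 6, beside 28.2% of all genes tested. Lyve1 and Cdh5 lay higher after IL-1β, and Stab2, Kdr and Clec4g lower. The 6 stellate cell markers gave between 18.4 and 21.8 CPM and between 20.5 and 26.0 CPM, again with overlap. Most of this was Dcn, at 18.4 CPM in control and 20.3 CPM after IL-1β, the only 1 of the 6 with enough counts to be tested. In IL-1β replicate 3, which also had the most Tlr4, Col1a1 had 36 counts and Pdgfrb 13, their highest values, but Col1a2 had 1, its lowest. The part of stellate cells in the level of Tlr4 was not tested. Neutrophil markers separated the groups, with at most 0.179 CPM in control and between 2.24 and 4.83 CPM after IL-1β. Nearly all of this was S100a8, a calcium-binding protein abundant in neutrophils, which had 0 counts in each control library and 19, 36 and 51 counts after IL-1β. S100a9, Mpo and Retnlg, also neutrophil genes, were at 0 in all 6 libraries, and Csf3r had at most 2 counts. The cholangiocyte list summed to between 315 and 329 CPM in control and between 236 and 239 CPM after IL-1β. Nearly all of it came from Sox9 and Spp1, of which Spp1 was called lower, whereas Krt7, Epcam and Cftr had at most 3 counts in any library. Krt19 had 6, 3 and 2 counts in control and 0 in each IL-1β library, too few to be tested.

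Ly96 encodes MD-2, the LPS-binding partner of TLR4. The gene lies at chr1:16688456-16709605 on the plus strand. Its 3 control samples were at 42.1, 40.7 and 28.1 CPM and its IL-1β samples at 40.3, 34.8 and 39.0 CPM. The groups overlapped, with the lowest value in control. The mean was 37.0 ± 7.73 CPM in control and 38.0 ± 2.84 CPM after IL-1β (SD, n = 3), and the log2 fold change of 0.04 had a 95% interval from -0.23 to 0.30 (adjusted p = 0.914 by edgeR). Its sign turned with total-count scaling (-0.01) and without control replicate 3 (-0.13).

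Tlr4, the signalling receptor for LPS, was near the lower limit of detection. At chr4:66827811-66842796 on the plus strand, it had 4, 11 and 11 counts in control and 18, 8 and 38 counts after IL-1β. IL-1β replicate 2 fell within the control range and replicate 3 stood highest. Mean levels were 0.822 ± 0.392 and 2.07 ± 1.39 CPM (SD, n = 3). The log2 fold change of 1.33, with a 95% interval from 0.16 to 2.50, did not pass the threshold (adjusted p = 0.141 by edgeR). Without IL-1β replicate 3 the log2 fold change was 0.70 (adjusted p = 0.652), and with limma on log2(CPM + 1), which shrinks changes of low genes, it was 0.67. The GENCODE annotation of GRCm38 places the end of this gene 87488 bases beyond the deposited end, and whether reads there were counted is not given in the sources used here.

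**Figure D3:**
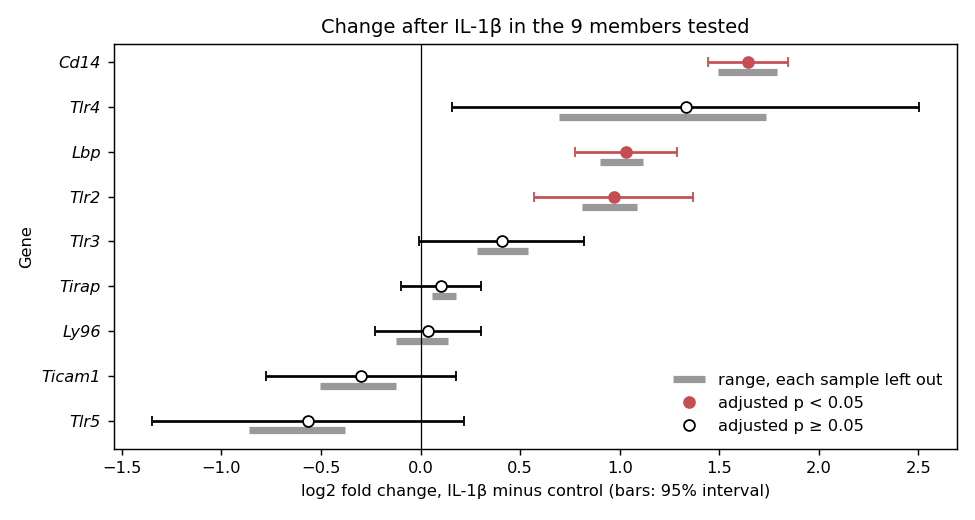
Log2 fold change of IL-1β over control on the x axis for the 9 genes tested, with 95% intervals as thin bars, adjusted p below 0.05 as filled red points, and grey bars for the range as each of the 6 samples was left out. The intervals and grey bars of Cd14, Lbp, Tlr2 and Tlr4 lie above 0, but that of Tlr4 is the widest and its adjusted p is 0.141.

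Tlr2 senses bacterial lipoproteins at the cell surface, where it pairs with TLR1 or TLR6. The gene lies at chr3:83836272-83841608 on the minus strand, and no other annotated gene overlaps it. Counts were 82, 62 and 83 in control and 138, 144 and 147 after IL-1β, or 7.70, 5.54 and 8.35 CPM against 14.7, 13.8 and 13.7 CPM. All 3 IL-1β samples exceeded the highest control. The means were 7.20 ± 1.47 and 14.1 ± 0.585 CPM (SD, n = 3), with a log2 fold change of 0.97 (SE 0.194, 95% interval 0.57 to 1.37, adjusted p = 0.000845 by edgeR).

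NF-κB is a transcription factor that acts downstream of both the IL-1 receptor and the TLRs, so promoters were searched for its consensus, as well as for AP-1 (TGANTCA), C/EBP (TTNNGNAA) and the interferon-stimulated response element core. RefSeq promoters, which cover 250 bases before to 50 bases after the start site on GRCm38.p6, were at hand for Tlr1, Tlr2, Tlr3, Tlr5, Tirap and Ticam1, 8 promoters for these 6 genes. On either strand, the NF-κB consensus was present in 2 of the 8, 1 each of Tlr2 and Tlr3, and in 8.46% of all 32851 promoters. The C/EBP motif was present in 3 of the 8, 1 each of Tirap, Tlr2 and Tlr3, and in 40.7% of all promoters. Neither AP-1 (7.81% of all promoters) nor the interferon-response core (3.44%) occurred for any of the 6. Such a match is a string of letters, not evidence of binding, and it was found for Tlr2, which was called higher, and for Tlr3, which was not.

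The matches in Tlr2 and Tlr3 are shown because they are the only NF-κB matches among the members with a promoter, with the genomic plus-strand interval given and the sequence written along the minus strand on which both genes lie. Capitals mark the NF-κB matches and, in the first line, also the C/EBP match that precedes it. The first line is chr3:83841768-83841858 and starts 250 bases before the RefSeq start of Tlr2. The second is chr3:83841597-83841626 and spans that start. The third is chr8:45410572-45410601, upstream of the RefSeq start of Tlr3.
Tlr2 upstream: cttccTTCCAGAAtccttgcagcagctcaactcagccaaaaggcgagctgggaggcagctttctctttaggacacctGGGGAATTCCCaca
Tlr2 start: ccctgacctgGGGACATCCCcttccctcac
Tlr3 upstream: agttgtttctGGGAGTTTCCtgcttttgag
In the first line the NF-κB stretch, positions -173 to -163 from the RefSeq start, holds 2 overlapping matches on the strand of the gene and 1 on the other strand. GENCODE places the start of Tlr2 159 bases farther upstream than RefSeq, so this stretch also lies before the GENCODE start. For Tlr3, GENCODE places the start at chr8:45411080, so the third line is upstream of the RefSeq start only and lies within the GENCODE gene.

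Tlr1, which forms the receptor for triacylated lipopeptides together with TLR2, was practically undetected. At chr5:64924680-64933558 on the minus strand, it had 1, 0 and 0 counts in control and 0, 1 and 0 counts after IL-1β, below the lower limit of 3 counts in every library. It was therefore not tested, and at this depth neither its presence nor a difference was detectable.

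Tlr5, the receptor for bacterial flagellin, lies at chr1:182954788-182976044 on the plus strand. It had 28, 32 and 39 counts in control and 15, 19 and 31 counts after IL-1β, or 2.63, 2.86 and 3.93 CPM against 1.60, 1.82 and 2.88 CPM. IL-1β replicate 3 lay within the control range. Mean levels were 3.14 ± 0.692 and 2.10 ± 0.682 CPM (SD, n = 3), and the log2 fold change of -0.56 (95% interval -1.35 to 0.22, adjusted p = 0.411 by edgeR) did not pass the threshold. A long non-coding RNA, Gm38079, lies on the same strand within 1000 bases of its 3′ end.

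Tlr3, which senses double-stranded RNA in endosomes, lies at chr8:45395665-45410539 on the minus strand. It had 77, 98 and 92 counts in control and 85, 118 and 140 counts after IL-1β. After scaling, the lowest IL-1β sample lay just under the highest control. The means of 8.42 ± 1.06 and 11.1 ± 1.97 CPM (SD, n = 3) gave a log2 fold change of 0.41 (95% interval -0.01 to 0.82, adjusted p = 0.222 by edgeR), which is not a call in either direction. An antisense gene, Gm45542, overlaps Tlr3, and whether the counting used strand is not given in the sources used here.

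The summed counts of Tlr1 to Tlr5 can be divided within a library, which needs no scaling between libraries. Tlr2 made up 42.7% (exact Clopper-Pearson 95% interval 35.6 to 50.0), 30.5% (24.3 to 37.4) and 36.9% (30.6 to 43.6) of these counts in control. After IL-1β its share was 53.9% (47.6 to 60.1), 49.7% (43.8 to 55.6) and 41.3% (36.1 to 46.6). The median share was thus higher with IL-1β, but IL-1β replicate 3, which had the most Tlr4, lay below control replicate 1. Tlr3 held between 33.2% and 48.3% of the counts in all libraries. Tlr5 made up between 14.6% and 17.3% in control and between 5.86% and 8.71% after IL-1β, without overlap. A share also falls when the other counts rise, and the Tlr5 level in CPM overlapped between the groups and was not called. Tlr4 made up between 2.08% and 5.42% in control and between 2.76% and 10.7% after IL-1β, with overlap. The use of molecular identifiers is not stated, and reads copied by PCR are not independent molecules, so the intervals cover counting error only.

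**Figure D4:**
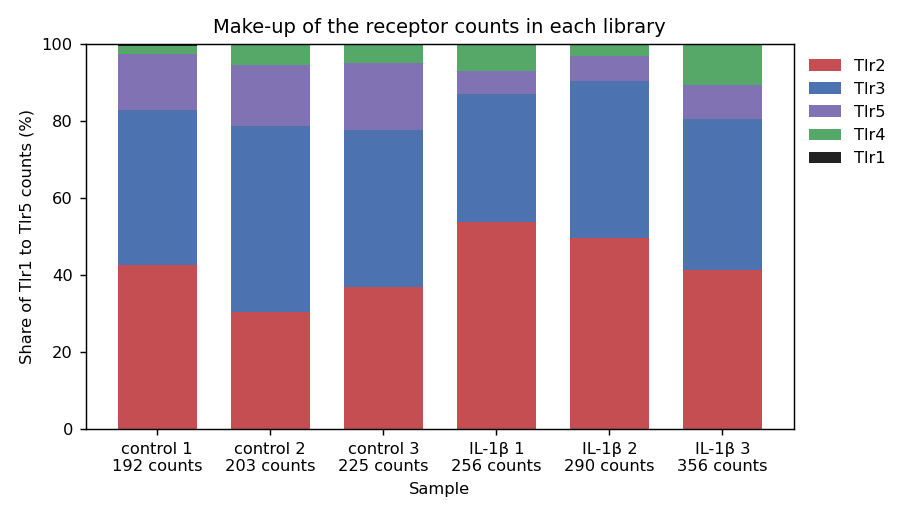
Share of each receptor gene in the summed counts of Tlr1 to Tlr5 (y axis, percent) in each of the 6 libraries, with the summed count under each bar. Tlr2 and Tlr3 make up most of the counts in every library. The Tlr5 share is below 9% in the 3 IL-1β libraries and above 14% in the 3 controls, although Tlr5 in CPM overlaps between the groups.

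Neither adaptor was called in either direction. Tirap, whose product links TLR2 and TLR4 to MyD88, lies at chr9:35184391-35200291 on the minus strand and was at 50.4, 57.6 and 51.2 CPM in control and 51.2, 58.9 and 60.7 CPM after IL-1β. The groups overlapped, with means of 53.1 ± 3.93 and 56.9 ± 5.09 CPM (SD, n = 3). Its log2 fold change was 0.10 (95% interval -0.10 to 0.30, adjusted p = 0.599 by edgeR), an interval that leaves out a change as large as that of Tlr2. Srpr, a subunit of the signal recognition particle receptor, overlaps Tirap on the other strand, as does the antisense gene Gm39318, so that Tirap counts are uncertain if strand was not used.

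Ticam1, whose product TRIF is the adaptor of TLR3 and of the later TLR4 signal, lies at chr17:56269462-56276767 on the minus strand. It was at 9.85, 7.87 and 7.85 CPM in control and 6.83, 5.18 and 8.73 CPM after IL-1β. IL-1β replicate 3 lay within the control range and the other two below it. The means of 8.52 ± 1.15 and 6.92 ± 1.78 CPM (SD, n = 3) gave a log2 fold change of -0.30 (95% interval -0.78 to 0.18, adjusted p = 0.494 by edgeR).

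Read as 3′ tag levels, the 10 genes ranked in control from Cd14 through Tirap, Ly96 and Lbp to Ticam1, Tlr3, Tlr2, Tlr5, Tlr4 and Tlr1. Neighbours in this order whose samples overlapped were Ticam1 with Tlr3 and Tlr3 with Tlr2. After IL-1β the order was Cd14, Tirap, Lbp, Ly96, Tlr2, Tlr3, Ticam1, Tlr5, Tlr4 and Tlr1. Lbp now stood above Ly96 and overlapped Tirap, Tlr2 stood above Tlr3 without overlap, and Tlr5 overlapped Tlr4.

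For the 3 genes called higher, the genes with the most similar profile over the 6 samples were found by Pearson's r of log2(CPM + 1), as a description, since all points share the split into 2 groups. Nearest to Cd14 were Abcc1 (r = 0.9995) and Cpb2 (r = 0.9985), nearest to Lbp were Car13 (r = 0.9981) and B4galt1 (r = 0.9972), and nearest to Tlr2 were Alpk1 (r = 0.9982) and Plet1 (r = 0.9980). Such values were common, with 367 genes above 0.95 for Cd14, 311 for Lbp and 167 for Tlr2.

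The rest of the TLR pathway was read from a list of 60 further genes. This list too was drawn up with earlier results of these data known, so its counts, in total and by role, are a description. Of these, 45 had enough counts, and 14 were called higher (31.1%, beside 6.97% of all genes), 2 lower (4.44%, beside 6.44%) and 29 neither way. The median log2 fold change of the 45 was 0.09. The 7 remaining TLR genes had at most 12 counts in any library and none was tested.

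Inhibitors of the pathway made up most of the calls. Of 11 tested, 8 were called higher (72.7%, beside 6.97% of all genes tested) and 1 lower (9.09%, beside 6.44%). Tnfaip3, which encodes the ubiquitin-editing enzyme A20, went from 4.81 ± 1.00 to 35.0 ± 3.18 CPM (log2 fold change 2.87, adjusted p = 1.2e-12 by edgeR). Irak3, a kinase-like brake on IRAK signalling, went from 13.1 ± 4.75 to 61.8 ± 3.11 CPM (2.24, adjusted p = 8.75e-11). Nfkbia, which encodes the NF-κB inhibitor IκBα, went from 269 ± 9.70 to 780 ± 39.2 CPM (1.54, adjusted p = 3.25e-15). The other higher inhibitors, by log2 fold change, were the RNase gene Zc3h12a (2.08), Socs1 (1.95), Nfkbie (0.99), Nfkbib (0.58) and Tollip (0.36). Socs1 depended on single samples, with a log2 fold change of 2.82 without control replicate 1 and 1.48 without control replicate 3. It lost its call without IL-1β replicate 2 (adjusted p = 0.111), as did Tollip (0.127), which also lost it without IL-1β replicate 3 (0.0677) and without control replicate 3 (0.0724). Sigirr, an inhibitory member of the IL-1 receptor family, was lower, with 28, 31 and 25 counts in control and 2, 4 and 7 after IL-1β (log2 fold change -2.61, SE 0.531, adjusted p = 0.00101). Limma on log2(CPM + 1) gave -1.37 for this low gene.

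The 18 tested kinases and ubiquitin ligases had a median log2 fold change of -0.02. Of them, 2 were called higher (11.1%, beside 6.97% of all genes tested) and 0 lower. These were Ikbke, from 45.5 ± 3.30 to 74.2 ± 1.25 CPM (0.71, adjusted p = 2.36e-06 by edgeR), and Irak2 (0.28, adjusted p = 0.0219), which lost its call with total-count scaling (adjusted p = 0.0786) and without control replicate 1 or 2 or IL-1β replicate 1 or 3 (adjusted p from 0.0520 to 0.0932). Both tested adaptors, Myd88 and Pik3ap1, missed the threshold. In the LPS handling group 1 of 4 was called, and it was higher (25%, beside 6.97% of all genes tested). This was Casp4, which encodes a caspase that binds intracellular LPS, at 3.09 ± 0.940 CPM in control and 18.6 ± 1.30 CPM after IL-1β (log2 fold change 2.59, adjusted p = 1.7e-09 by edgeR).

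Of the 4 co-receptors and chaperones tested, 2 were called higher (50%, beside 6.97% of all genes tested). These were Unc93b1, which carries endosomal TLRs to their compartment (log2 fold change 0.48, adjusted p = 0.00525 by edgeR), and Hsp90b1, a chaperone of TLR folding (0.42, adjusted p = 3.43e-05). Among 6 transcription factors, 1 was called higher and 1 lower (16.7% each, beside 6.97% and 6.44% of all genes tested). Nfkb1 was higher (0.55, adjusted p = 0.0288 by edgeR) and Irf7 was lower, from 273 ± 6.10 to 223 ± 12.4 CPM (-0.29, adjusted p = 0.00311). The call of Nfkb1 was lost with DESeq2 (adjusted p = 0.314) and when any sample but control replicate 1 was left out (adjusted p from 0.0562 to 0.204).

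**Figure D5:**
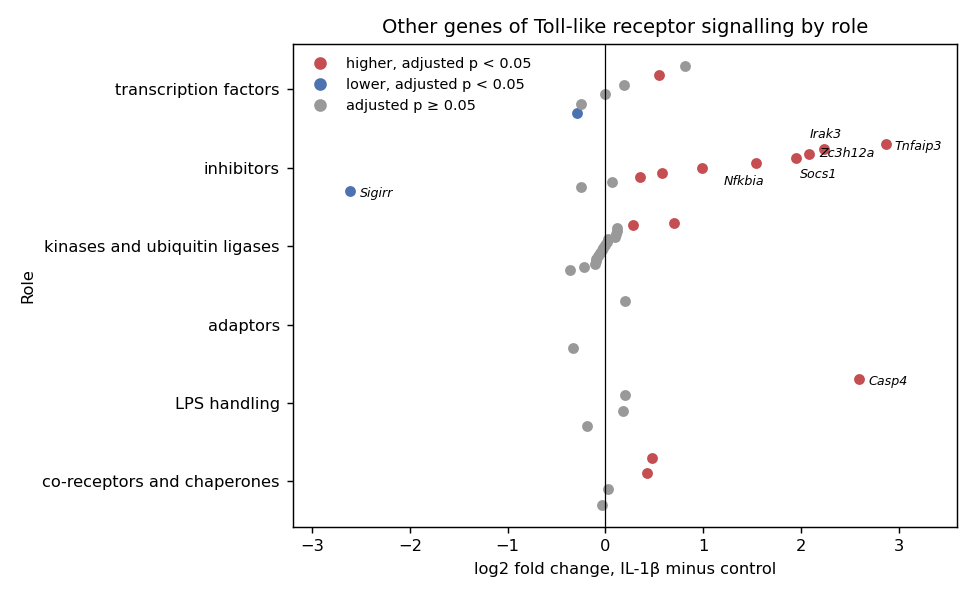
Log2 fold change of IL-1β over control (x axis) for the 45 tested genes of the pathway list, grouped by role, with genes called higher in red, lower in blue and neither in grey. Inhibitors hold 8 of the 14 genes called higher (72.7% of the inhibitors tested, beside 6.97% of all genes tested). The kinases and ubiquitin ligases cluster near 0 (11.1% called higher).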

How the data were processed

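RNA of 6 samples, 3 control and 3 IL-1β, was sequenced as single-end reads of 75 nt from QuantSeq 3′ libraries. Per the labels, the authors aligned reads with Bowtie2 on mm10/GRCm38 and analysed them with edgeR (TMM and CPM). The version of either tool, the counting tool, strand use and the handling of reads matching several genes are not given in the sources used here. The authors deposited whole-number read counts per gene, which alone were used. Their log2 normalized values, group averages, fold changes and p-values were not used. Counts were fitted for all genes in R 4.3.3 with edgeR 4.0.16 (filterByExpr, TMM, quasi-likelihood test, Benjamini-Hochberg adjustment). The fit was also run on counts simulated with the dispersions that edgeR had estimated from these data, which checks the code and not the calls. Changing a scaling factor shifts every fold change alike. Exact permutation and Clopper-Pearson intervals used scipy 1.17.1.

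Members and lists were chosen with earlier results of these data known. Named were all 10 members, listed pathway genes past the threshold, the 3 most abundant markers of a list and the 2 closest profiles for each called member. One marker list is not reported here. Genes named beyond this rule were chosen after their values were seen. Alternatives were DESeq2 1.42.0, limma 3.58.1 with a pseudocount of 1 CPM, upper-quartile and total-count scaling, other count filters, Rn45s left out, a replicate block, and each sample left out in turn. Same-numbered samples deviated together with correlations of 0.075, 0.027 and -0.005, so numbers were not used as pairs.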

Additional observations from a re-analysis of the deposited data

How the results depend on the processing

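The 3 members called higher were Cd14, Lbp and Tlr2 in each of the 14 alternatives, and 0 members were called lower in any. Over the 8 alternatives with all samples, the log2 fold change ranged from 1.59 to 1.66 for Cd14, from 0.98 to 1.04 for Lbp and from 0.89 to 0.98 for Tlr2, and with each sample left out from 1.49 to 1.79, from 0.90 to 1.12 and from 0.81 to 1.09. Ly96, never called, turned to -0.0137 with total counts, and ranged from -0.126 to 0.139 as samples were left out. Tlr4, Tlr5, Tlr3, Tirap and Ticam1 kept their direction and were never called, with adjusted p from 0.064 to 0.652 for Tlr4 as samples were left out. Tlr4 had no value with at least 10 counts in every sample. That filter also left 1 pathway gene called lower in place of 2, since Sigirr was not tested. Calls over all genes numbered 1563, between 1488 and 1728 in the other alternatives, and between 1131 and 1596 as samples were left out. With the replicate block 1671 genes were called, the same 3 members among them. Control replicate 3 deviated more with IL-1β replicate 2 (0.099) than with its own number. For the 16 pathway genes called, 207 of 222 alternative fits kept the call and the direction and 15 lost the call, with 0 reversed. Those 15 concern Nfkb1, Irak2, Tollip and Socs1. Depth limits Tlr1 and Tlr4, which had at most 1 and 38 counts in a library.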
